A study of Mus musculus with 8 samples.

Results

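The 8 sarcomeric myosin heavy chain genes Myh1, Myh2, Myh3, Myh4, Myh6, Myh7, Myh7b and Myh8 were followed in cultured mouse muscle stem cells with and without Cre-mediated deletion in Chd4. They were taken by gene name from a table of 20976 genes, and all 8 were present. The cells were sorted by flow cytometry from mice homozygous for a loxP-flanked Chd4 allele (Chd4LoxP/LoxP), grown for a short time in medium with 20% FCS and bFGF, and infected with adenovirus. In the Cre group the virus carried CRE recombinase, which deletes exons 12 to 21 of Chd4, a chromatin remodeller and the ATPase subunit of NuRD. In the GFP group the virus was AdenoGFP, so that both groups carried the floxed alleles and both were infected. A group of Cre-treated cells with intact Chd4 was not analysed here. Each group held 4 libraries from 4 mice, and none of the sources used here gives the age of the mice, the viral dose or the time after infection.

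Myosin heavy chains are the motor proteins of the thick filament, and each muscle cell makes a mixture of isoforms encoded by separate genes. Myh3 encodes the embryonic form and Myh8 the perinatal form, which are made while fibres develop or regenerate and give way to adult forms. Myh2, Myh1 and Myh4 encode the fast forms IIa, IIx and IIb, Myh7 encodes the slow form that the heart ventricle also uses, and Myh6 encodes the fast cardiac form. Myh7b encodes a related slow-type heavy chain. Muscle stem cells and myoblasts make little of these proteins, and the transcripts appear as the cells exit the cell cycle and form myocytes and myotubes.

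The values are reads per gene, scaled between libraries and rounded before deposition, and are called normalised reads below. The scaled totals lay between 27897860 and 28876348, and the depth before scaling was estimated at 23.3 to 38.0 M reads from gaps among low values. Normalised reads of Chd4 were 3686, 5480, 5010 and 5134 in Cre replicates 1 to 4, against 17886, 15904, 16634 and 20121 in GFP replicates 1 to 4. The groups did not overlap, and each library matched its label. Of the markers of the labelled cell type, Pax7 lay between 4381 and 6704 and Myod1 between 30708 and 47778 over the 8 libraries, beside Myog, a marker of differentiating myocytes, at 8884 to 32566. Libraries of equal number shared their departures from the group mean, and were taken as pairs on that evidence, since the labels do not state a pairing. A model without pairs is given first, with a paired model beside it. P-values from either model measure only the spread between these libraries.

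The 8 genes lie at 3 places in the genome, given here on GRCm38. On chromosome 11, plus strand, Myh3 (67078300 to 67102291), Myh2 (67171027 to 67197517), Myh1 (67200052 to 67224575), Myh4 (67238029 to 67260446) and Myh8 (67277124 to 67308634) follow each other. On chromosome 14, minus strand, Myh6 (54941981 to 54966641) lies beside Myh7 (54970688 to 54994634). Myh7b lies alone on chromosome 2, plus strand, at 155611212 to 155634307. The promoter sequences of RefSeq (GRCm38.p6) held all 8 genes, and the 250 bases before each annotated start were compared for runs of at least 12 identical bases, leaving out any annotated exon. The runs are shown because the 4 chromosome 11 neighbours that carry them differ widely in transcript level, as given below. Myh1, Myh4 and Myh8 carry both runs, and Myh2 only the downstream run. The stretches follow 5′ to 3′ on the plus strand, with capitals for the part of each run that all of its carriers share. Some genes share more than the capitals, up to the 22 bases TCAAATTATTTATAGGAGATTG in Myh1 and Myh8.
Myh2, chr11:67170887-67170930: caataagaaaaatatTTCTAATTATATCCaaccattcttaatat
Myh1, chr11:67199871-67199970: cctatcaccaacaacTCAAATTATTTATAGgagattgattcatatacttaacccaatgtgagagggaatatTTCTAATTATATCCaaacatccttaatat
Myh4, chr11:67237610-67237682: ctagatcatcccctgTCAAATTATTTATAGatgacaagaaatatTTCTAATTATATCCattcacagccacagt
Myh8, chr11:67277005-67277098: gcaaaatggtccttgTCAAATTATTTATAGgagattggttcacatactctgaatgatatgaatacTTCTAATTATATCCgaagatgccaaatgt
The run TTCTAATTATATCC starts at position -125 from the RefSeq start in Myh2, -160 in Myh1, -158 in Myh4 and -54 in Myh8. It was found in the same window of 4 of 27025 genes (0.0148%), which are these 4. The run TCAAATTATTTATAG lies upstream of it in Myh1, Myh4 and Myh8, at -216, -187 and -104, and was found in 3 of 27025 genes (0.0111%). The genes were searched on both strands. Neither run was in the windows of Myh3, Myh6, Myh7 or Myh7b.

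The window of Myh3 is shown because Myh3 was the most abundant of the 8 genes, as given below. Capitals mark an E box, CANNTG, the 6-base motif bound by MyoD and myogenin among other factors, and the TATA-type motif TATAAA.
Myh3, chr11:67078100-67078299: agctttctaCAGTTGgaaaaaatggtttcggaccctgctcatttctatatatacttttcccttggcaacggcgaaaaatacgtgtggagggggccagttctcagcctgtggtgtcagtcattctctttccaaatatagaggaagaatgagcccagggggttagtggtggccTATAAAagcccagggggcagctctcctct
The E box starts at -191 and the TATAAA motif at -29 from the Myh3 start. CANNTG occurs in the 250 bases before the start of 69.3% of 27025 genes and TATAAA in 14.3%, both strands searched. The other-strand form of TATAAA lies within the run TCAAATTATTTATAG, so those matches overlap. Within the same window Myh1 had 0 E boxes and 2 TATAAA motifs, Myh2 had 0 of each, Myh4 had 2 E boxes and 3 TATAAA motifs, and Myh8 had 1 of each. Myh6, Myh7 and Myh7b each had 1 E box and 0 TATAAA motifs. These matches describe letters in the reference and were not tested as binding sites.

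Myh3 was the most abundant member in every library once each gene was divided by its exon length. Its level was 2845, 13674, 13546 and 9040 reads per kb in Cre replicates 1 to 4, with 2461, 12422, 12074 and 6307 in GFP replicates 1 to 4. It made up 75.0 to 90.6% of the summed level per kb of the 8 genes. Myh1 came next, with 4.97 to 18.5% of the sum, and Myh3 exceeded it by 4.06 to 18.2 times within a library. Myh7 (1.04 to 3.92%) and Myh8 (1.88 to 2.22%) followed, and their order could not be told, since Myh7 was higher in 4 of 8 libraries. Per kb of the longest coding transcript, 6.149 kb for Myh8 against 11.772 kb of exon union, the mean Myh8 share was 3.87% in place of 2.10%, that of Myh7 was 3.33%, and Myh7 was again higher in 4 of 8. Myh2 and Myh7b, with means of 0.259% and 0.290% of the sum, were likewise in either order, Myh2 being higher in 4 of 8. Myh4 had a mean of 0.134%, and Myh6 was lowest in every library, with a mean of 0.0173%. The order by mean reads per kb over the 8 libraries was Myh3, Myh1, Myh7, Myh8, Myh2, Myh7b, Myh4 and Myh6. Together the 8 genes took 0.0708 to 0.403% of the normalised reads of a library.

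**Figure D1:**
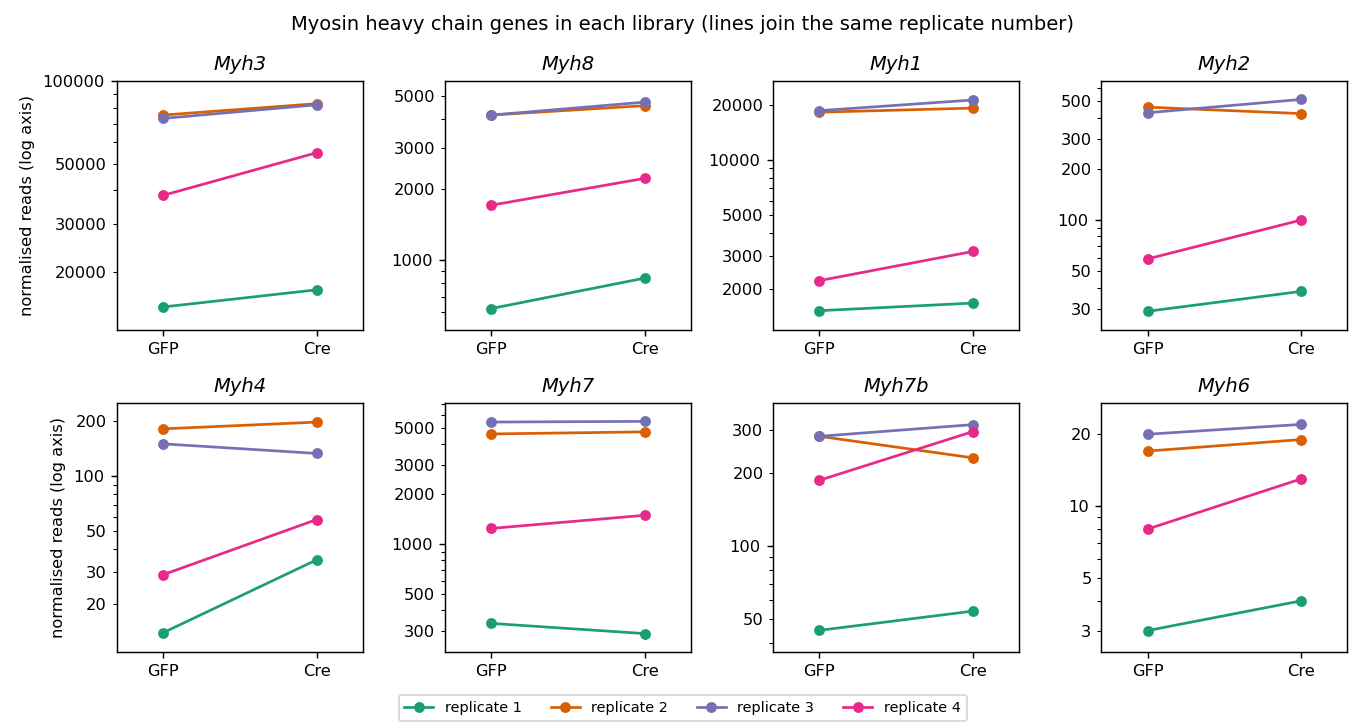
Normalised reads (log axis, scaled separately for each gene) of the 8 genes in the 4 GFP and 4 Cre libraries; each point is 1 library and a line joins libraries of the same replicate number. Replicates differ far more than the ends of a line, as for Myh3 at 14907 and 17231 in replicate 1 and 75240 and 82821 in replicate 2.

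The developmental forms Myh3 and Myh8 were slightly higher in the Cre library of every pair. Normalised reads of Myh3 (ENSMUSG00000020908) were 17231, 82821, 82049 and 54753 in Cre replicates 1 to 4, against 14907, 75240, 73133 and 38202 in GFP replicates 1 to 4. Replicate 1 was lowest and replicates 2 and 3 highest in both groups, and the groups overlapped almost fully. The log2 change was 0.26 ± 0.65 (SE; limma, adjusted p = 0.894), a fold of 1.20 with a 95% confidence interval of 0.423 to 3.38. In the paired model the same change of 0.26 had an SE of 0.07 (adjusted p = 0.00915), a fold of 1.20 (1.08 to 1.32), and Myh3 was higher in 4 of 4 pairs.

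Normalised reads of Myh8 (ENSMUSG00000055775) were 839, 4551, 4712 and 2231 in Cre replicates 1 to 4, against 622, 4150, 4149 and 1714 in GFP replicates 1 to 4. Its libraries fell in the same pattern as those of Myh3, with replicate 1 lowest, replicates 2 and 3 highest, and overlapping groups. The log2 change was 0.28 ± 0.75 (SE; limma, adjusted p = 0.898) without pairs and 0.28 ± 0.06 (adjusted p = 0.00263) with them, higher in 4 of 4 pairs. Myh3 and Myh8 kept their paired call in all 12 paired settings, which include leaving out each pair. Without pair 4 the log2 change of Myh3 went from 0.26 to 0.17 (adjusted p = 0.0335). Whether the changes reflect more cells that make these transcripts or more RNA per cell cannot be told apart in RNA from whole cultures.

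**Figure D2:**
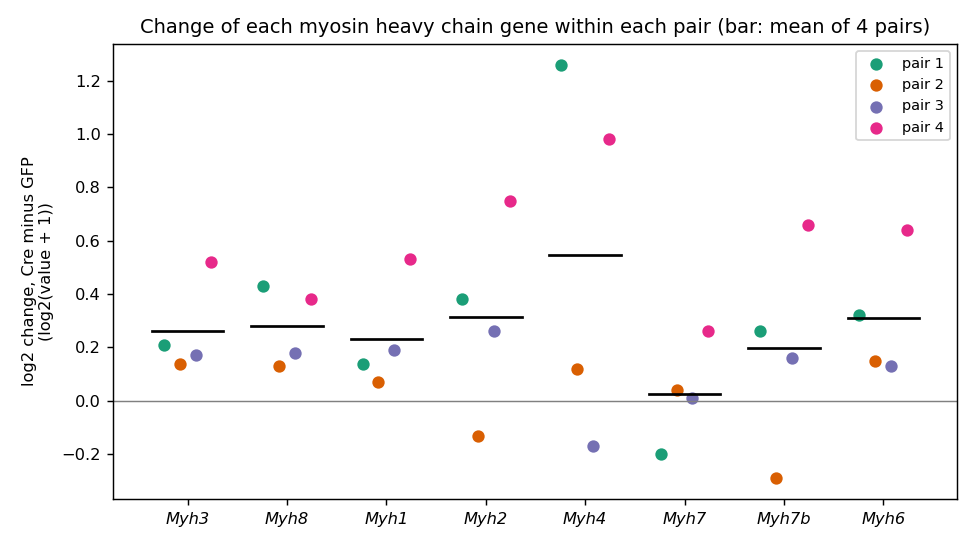
Log2 change of each gene within each pair, Cre minus GFP on log2(value + 1); points are the 4 pairs and the bar is their mean. For 6 of the 8 genes pair 4 shows the largest rise, and only Myh3, Myh8, Myh1 and the barely detected Myh6 are above 0 in every pair.

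Among the fast forms, Myh1 was the abundant one and showed a small paired rise. Normalised reads of Myh1 (ENSMUSG00000056328) were 1667, 19137, 21180 and 3183 in Cre replicates 1 to 4, against 1515, 18175, 18534 and 2207 in GFP replicates 1 to 4. Replicates 2 and 3 stood far above replicates 1 and 4 in both groups, with a gap from 3183 to 19137 in Cre and from 2207 to 18175 in GFP. The log2 change was 0.23 ± 1.14 (SE; limma, adjusted p = 0.950) without pairs and 0.23 ± 0.07 (adjusted p = 0.0160) with them. It was higher in 4 of 4 pairs. The paired call was lost without pair 3 (log2 change 0.25, adjusted p = 0.0528) and without pair 4 (0.13, adjusted p = 0.0551), and it held in the other 10 of 12 paired settings.

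Normalised reads of Myh2 (ENSMUSG00000033196), the IIa form, were 38, 423, 513 and 100 in Cre replicates 1 to 4, against 29, 462, 428 and 59 in GFP replicates 1 to 4. Myh4 (ENSMUSG00000057003), the IIb form, stood at 35, 197, 133 and 58 in Cre and at 14, 181, 150 and 29 in GFP. Both had the same high replicates 2 and 3, and both were higher in Cre in 3 of 4 pairs. Myh4 gave the widest spread between pairs, from a log2 change of -0.17 in pair 3 to 1.26 in pair 1, where its counts were lowest. The log2 changes were 0.32 ± 1.14 for Myh2 (SE; limma, adjusted p = 0.928) and 0.55 ± 0.90 for Myh4 (adjusted p = 0.823). Neither passed the paired model either, with an adjusted p of 0.0885 for Myh2 and 0.0749 for Myh4.

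The slow form Myh7 barely differed between Cre and GFP. Normalised reads of Myh7 (ENSMUSG00000053093) were 289, 4748, 5490 and 1492 in Cre replicates 1 to 4, against 333, 4611, 5439 and 1243 in GFP replicates 1 to 4. It had the widest range of the 8 genes between libraries, 19.0-fold from lowest to highest, but at most 1.20-fold within a pair. The log2 change was 0.03 ± 1.16 (SE; limma, adjusted p = 0.994). The paired model gave 0.03 ± 0.07 (adjusted p = 0.759) with a 95% confidence interval of -0.12 to 0.18, or 0.920 to 1.13 as a fold.

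Normalised reads of Myh7b (ENSMUSG00000074652) were 54, 230, 315 and 295 in Cre replicates 1 to 4, against 45, 282, 282 and 186 in GFP replicates 1 to 4. Unlike the other members, its replicate 4 lay close to replicates 2 and 3 in Cre, and the change was positive in 3 of 4 pairs. The log2 change of 0.20 passed neither model (limma, adjusted p = 0.931 without pairs and 0.287 with them). Myh6 (ENSMUSG00000040752), the fast cardiac form, stood at 4, 19, 22 and 13 in Cre and at 3, 17, 20 and 8 in GFP. Myh6 did not reach 1 CPM, a level relative to the library total, in at least 4 libraries and was not tested.

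Of the 8 members 7 were tested, and 0 passed without pairs, where 1.08% of 12910 genes did. At an unadjusted p under 0.05 the count of members was also 0, where 2157 of the 12910 genes reached it. Voom without pairs likewise called 0 members, and 153 of 12910 genes in all. In the paired model 3 of the 7 were higher (Myh1, Myh3 and Myh8), 0 were lower and 4 did not pass. In that model 43.9% of all tested genes were called, and 22.2% were called higher, so 3 of 7 is to be read against a high background. None of the 7 had groups without overlap, against 10.6% of tested genes, and 3 of 7 were higher in Cre in 4 of 4 pairs, against 27.9%. The median log2 change of the 7 was 0.26 (range 0.03 to 0.55), and that of all tested genes was -0.00.

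For all 8 genes the range between replicate numbers was wider than the largest difference within a pair. From the lowest to the highest library the level of Myh1 differed 14.0-fold, that of Myh2 17.7-fold, that of Myh4 14.1-fold and that of Myh3 5.56-fold. Within a pair the fold was at most 1.44 for Myh1, 1.68 for Myh2, 2.40 for Myh4 and 1.43 for Myh3. In both groups replicates 2 and 3 exceeded replicates 1 and 4 for every member apart from Myh7b in Cre, where replicate 4 (295) exceeded replicate 2 (230). Xist, the transcript of the inactive X chromosome, was between 40670 and 49984 in replicates 1 and 4 and between 2 and 12 in replicates 2 and 3. Ddx3y, a Y-linked gene, showed the opposite, with 3141 to 3823 in replicates 2 and 3 and 0 to 4 in replicates 1 and 4. With 2 such replicates of each kind, sex and any other difference between these mice or cultures cannot be told apart. Ryr2, the cardiac ryanodine receptor, was found in pair 4 alone, at 384 in Cre and 473 in GFP against 0 to 2 in the other libraries.

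The makeup of the heavy chain transcripts differed between replicate numbers and hardly within a pair. Myh3 took 88.0, 77.0, 75.0 and 90.6% of the sum per kb in Cre replicates 1 to 4, with 87.7, 76.2, 75.0 and 90.3% in GFP replicates 1 to 4. Myh1 took 8.12, 17.0, 18.5 and 5.02% in Cre and 8.50, 17.5, 18.1 and 4.97% in GFP. Replicates 2 and 3, the libraries with the most heavy chain RNA in all, had a larger share of Myh1 and a smaller one of Myh3. Makeup did not follow the sum between replicates 1 and 4. In both groups replicate 4 had the higher sum of these 2, with the smaller share of Myh1 and the larger one of Myh3. The summed level per kb was 3232, 17753, 18062 and 9973 in Cre and 2805, 16310, 16106 and 6987 in GFP. The Cre to GFP ratio of the sum was 1.15, 1.09, 1.12 and 1.43 in pairs 1 to 4, with a geometric mean of 1.19. No test was made on the sum or the shares.

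**Figure D3:**
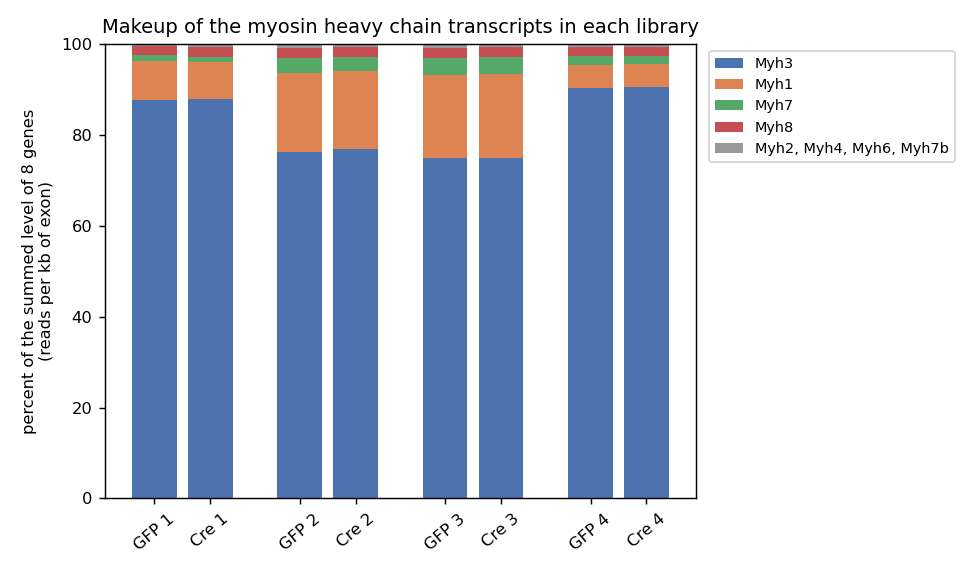
Share of each gene in the summed level of the 8 genes (percent, reads per kb of exon) in each library, with same-numbered GFP and Cre libraries side by side. Bars of a pair are nearly alike, whereas Myh3 goes from 75.0% in replicate 3 to 90.6% in Cre replicate 4.

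Set against Myh3, the abundant fast form Myh1 followed the replicate number. Reads of Myh1 came to 9.67, 23.1, 25.8 and 5.81% of those of Myh3 in Cre replicates 1 to 4, and 10.2, 24.2, 25.3 and 5.78% in GFP replicates 1 to 4. This ratio differed 4.47-fold between libraries and at most 1.05-fold within a pair. The ratio of Myh8, the other developmental form, had the narrowest range between libraries among the tested members, 1.41-fold, and differed by up to 1.17-fold within a pair. Myh7 relative to Myh3 was 1.68, 5.73, 6.69 and 2.72% in Cre and 2.23, 6.13, 7.44 and 3.25% in GFP. It was lower in Cre in 4 of 4 pairs, by a mean of -0.23 ± 0.14 on the log2 scale (SD, n = 4; two-sided exact sign-flip permutation test, p = 0.125, the smallest that 4 pairs allow). For the other 6 members this test gave p between 0.375 and 0.875, and 4 pairs cannot reach 0.05.

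**Figure D4:**
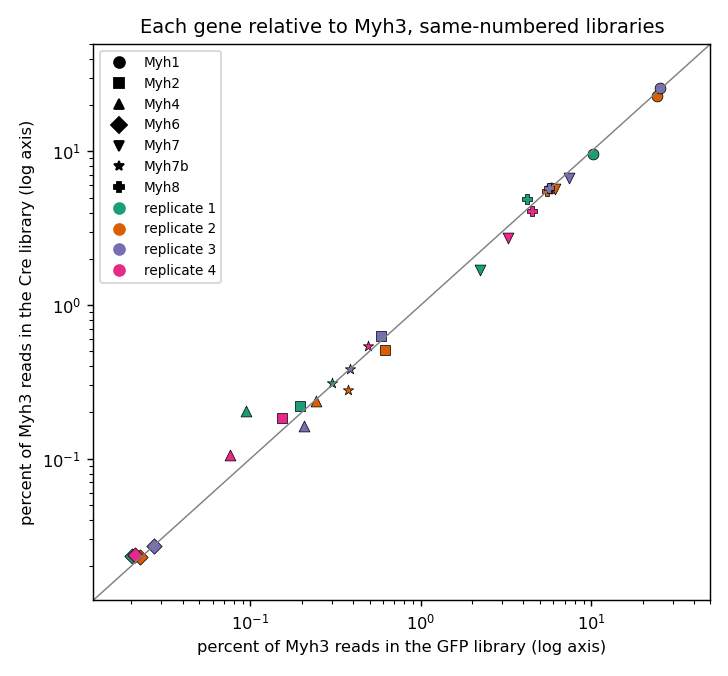
Reads of each gene as a percent of Myh3 reads in the GFP library (x, log axis) and in the Cre library of the same number (y, log axis); shapes are genes, colours are replicates and the line marks equality. Points lie near the line, all 4 of Myh7 fall below it, and the largest departure is Myh4 in replicate 1 (0.0939 against 0.203%).

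The genes whose profile over the 8 libraries was most like that of Myh3 were listed by Pearson r of log2(value + 1), as a description without a test. Predicted and clone genes were passed over. The 10 highest values among the rest lay between 0.994 and 0.999 and belonged to Filip1, Col25a1, Srl, Arhgap28, Kcnk13, Stard13, Actn2, Itgb1bp2, Fam114a1 and Csrp3. Filip1 encodes a filamin-binding protein, Col25a1 a transmembrane collagen, Srl the calcium-binding protein sarcalumenin, Actn2 a Z-disc alpha-actinin and Csrp3 the muscle LIM protein. Among the members r with Myh3 was 0.991 for Myh8, 0.979 for Myh7, 0.960 for Myh7b, 0.939 for Myh2, 0.912 for Myh4 and 0.899 for Myh1. Libraries of equal number were close to each other, so the 8 points are not independent. With deviations from the group means in place of levels, 6 of the 10 genes were again among the 10 highest.

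Reads of near-identical members can be misassigned, which limits the low members most. Of the 50-base windows of the longest coding transcript, 32.1% in Myh1, 28.9% in Myh2, 28.2% in Myh7, 22.6% in Myh6, 21.4% in Myh8 and 18.9% in Myh4 also occur in a transcript of another gene. For Myh3 the share was 4.81% and for Myh7b 0. Myh1 and Myh2 share 19.7% of their windows and Myh6 shares 22.6% of its windows with Myh7, which had far more reads. None of the sources used here says how reads with several matches were counted, so the levels of Myh2, Myh4 and Myh6 are uncertain. The levels of Myh1, Myh7 and Myh8 could also be affected, and with them the shares of the sum and the ratios to Myh3.

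Antisense genes overlap some members, and none of the sources used here says whether counting used strand. Over Myh1 lies the antisense gene Myhas, at 1 to 15 normalised reads. Over the 3′ part of Myh2 lies 9430073C21Rik, at 8, 104, 79 and 11 in Cre and 7, 90, 59 and 8 in GFP. Its highest libraries were those of Myh2, replicates 2 and 3, and the reads of the 2 genes cannot be told apart without strand. Mhrt, antisense to Myh7, stood at 0 to 2. The protein-coding gene Trpc4ap, on the other strand, overlaps Myh7b by 37 bases. It stood at 4271 to 4882 normalised reads, far above Myh7b at 45 to 315.

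Among the partners of the heavy chains, light chains and their kinases were taken first. Of 10 listed light chain and light chain kinase genes 7 were tested. Without pairs 1 passed, Mylk2, the skeletal muscle kinase of the regulatory light chain. Normalised reads of Mylk2 were 674, 536, 469 and 469 in Cre replicates 1 to 4, against 251, 265, 237 and 237 in GFP replicates 1 to 4. The groups did not overlap, and Mylk2 ranged from 237 to 265 over the GFP replicates. Its log2 change was 1.10 ± 0.14 (SE; limma, adjusted p = 0.0164), higher in 4 of 4 pairs. The unpaired call was lost when any 1 of the Cre libraries, or GFP replicate 3, was left out. Over all genes the unpaired model called only 1 to 3 without a Cre library and 29 without GFP replicate 3, against 140 with all 8 libraries. These losses therefore say little about Mylk2 itself. With pairs 6 of 7 were higher and 0 lower, beside 22.2% of all tested genes called higher in that model. Mylpf, the fast regulatory light chain, changed by 0.36 (limma, adjusted p = 0.804 without pairs, 0.00116 with them). Myl4, the embryonic and atrial essential light chain, changed by 0.30 (adjusted p = 0.869 without pairs, 0.00454 with them). Myl1, the fast essential light chain, changed by 0.44 (adjusted p = 0.780 without pairs, 2.2e-04 with them), and Mylk4, a kinase of the same family, by 0.19 (adjusted p = 0.897 without pairs, 0.00955 with them). Myl2, the slow and ventricular light chain, passed neither model (adjusted p = 0.925 and 0.165). The median log2 change of the 7 was 0.36.

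Of 14 tested genes for myosin folding, assembly and thick filament proteins, 0 passed without pairs (limma, with 1 at an unadjusted p under 0.05 and 0 by voom). Over all genes 2157 of 12910 had an unadjusted p under 0.05 without pairs. With pairs 10 were higher and 0 lower, beside 22.2% of all tested genes called higher, and the median log2 change was 0.25. Smyd1, a methyltransferase needed for sarcomere assembly, changed by 0.51 (limma, adjusted p = 0.557 without pairs, 1.3e-04 with them). Ttn, the giant scaffold titin, changed by 0.52 (adjusted p = 0.755 without pairs, 0.00187 with them), and Myom3, an M-band protein, by 0.51 (0.648 without pairs, 5.9e-04 with them). Hspb1, a small heat shock protein, changed by 0.35 (adjusted p = 0.208 without pairs, 0.00123 with them), and Trim55, an M-band-associated ubiquitin ligase, by 0.35 (0.430 without pairs, 3.4e-04 with them). These 5 genes were higher in 4 of 4 pairs. Hsp90aa1, the cytosolic chaperone that acts on myosin with Unc45b, changed by 0.06. Hsp90aa1, Mybpc1, Trim63 and Trim54 were the 4 that did not pass.

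Of 26 tested genes that regulate myosin genes or fibre type, 0 passed without pairs (limma, with 5 at an unadjusted p under 0.05 and 0 by voom), and with pairs 15 were higher and 2 lower. Over all tested genes the paired model called 43.9%, and it called 22.2% higher. Without pairs 2157 of 12910 genes had an unadjusted p under 0.05. The median log2 change was 0.16. Normalised reads of Thra, a thyroid hormone receptor, were 487, 632, 660 and 943 in Cre replicates 1 to 4, against 226, 323, 327 and 422 in GFP replicates 1 to 4. The groups did not overlap, and the log2 change was 1.06 ± 0.24 (SE; limma, adjusted p = 0.0904) without pairs and 1.06 ± 0.07 (adjusted p = 4.0e-06) with them. Nfatc2, a calcium-regulated transcription factor, changed by 1.06 (adjusted p = 0.181 without pairs, 0.00584 with them). The myogenic factor Myog changed by 0.46 (adjusted p = 0.586 without pairs, 7.3e-04 with them) and Myod1 by 0.20 (0.578 without pairs, 0.0425 with them). The promoter-binding protein Purb changed by 0.16 (adjusted p = 0.511 without pairs, 0.0197 with them). Tead1, which binds muscle gene promoters, changed by -0.21 (adjusted p = 0.673 without pairs, 0.0239 with them), and Srf, the serum response factor, by -0.31 (0.342 without pairs, 0.00229 with them).

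Of the 6 other myosin heavy chain genes 3 were tested, and 0 passed without pairs (limma, with 1 at an unadjusted p under 0.05 and 0 by voom). That unadjusted threshold was reached by 2157 of 12910 genes. With pairs Myh14 was higher, Myh10 lower and Myh9 did not pass, beside 43.9% of all tested genes called in that model and 22.2% called higher. Normalised reads of Myh9, the abundant non-muscle IIA form, were 43937, 31759, 38873 and 44799 in Cre replicates 1 to 4, against 46636, 32489, 41443 and 48170 in GFP replicates 1 to 4. It was lowest in replicate 2, where the sarcomeric forms were high, and its log2 change of -0.08 passed neither model (limma, adjusted p = 0.862 and 0.182). Myh10, the non-muscle IIB form, stood at 2360, 4462, 5003 and 5762 in Cre and at 4595, 5942, 6842 and 8943 in GFP. Myh10 was lower in Cre in 4 of 4 pairs, with -0.61 ± 0.30 on the log2 scale (SE; limma, adjusted p = 0.352) without pairs and -0.61 ± 0.08 (adjusted p = 1.5e-04) with them. Myh14, the non-muscle IIC form, changed by 0.62 (adjusted p = 0.285 without pairs, 0.0315 with them). The smooth muscle form Myh11, at 2 to 9, and Myh13 and Myh15 were not tested.

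Markers of differentiation and of the cell cycle were set beside the heavy chains. In the paired model 43.9% of all tested genes were called, and 22.2% were called higher, so the paired counts below stand against a high background. All 8 tested markers of differentiated myocytes were higher in the paired model and 0 passed without it, with a median log2 change of 0.41. Their summed level was 65665 to 239463 in Cre and 49072 to 192809 in GFP. All 8 proliferation genes, among them Mki67 (Cre to GFP fold 0.501) and Top2a (0.577), were lower in the paired model and 0 passed without it, with a median of -0.76. The change of Mki67 was largest in pair 1 (-1.46), whereas 6 of the 8 heavy chains changed most in pair 4. Of the differentiated myocyte markers, Myog (0.70), Mymk (0.75), Mymx (0.75), Acta1 (0.64) and Casq2 (0.54) also rose most in pair 4. Tnnt3 and Ckm rose most in pair 1 and Ttn in pair 3. The summed level of the proliferation genes was 12513 to 35178 in Cre and 27255 to 59396 in GFP. Of 8 stem cell and myoblast markers, 2 were higher with pairs, Myod1 (0.20) and Des (0.17). Lower with pairs were 3, Pax7 (-0.14), Myf5 (-0.57) and Vcam1 (-0.30). Itga7, Cdh15 and Sdc4 did not pass, and the median log2 change of the 8 was -0.01. The part of cell state in the heavy chain values was not tested.

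**Figure D5:**
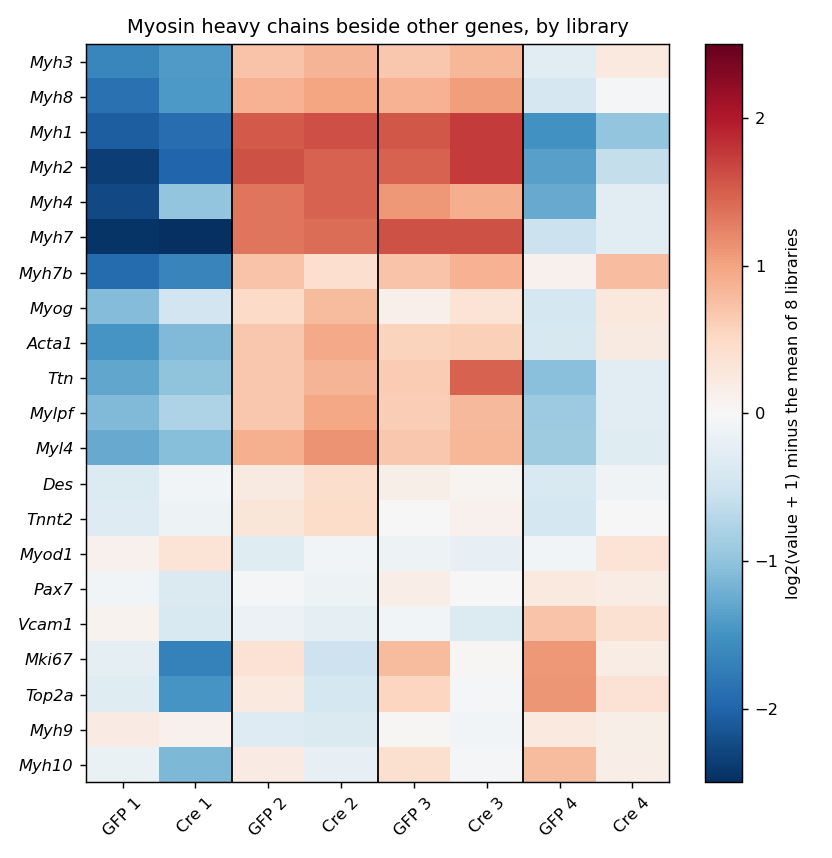
Log2(value + 1) of 7 myosin heavy chain genes and of other genes, each minus its mean over the 8 libraries, with same-numbered libraries side by side. The heavy chains, Acta1 and Ttn are low in replicate 1 and high in replicates 2 and 3, and Mki67, Top2a and Myh10 are lower in the Cre library of every pair.

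Markers of other cell types were low or moved as follows, and their part in the heavy chain values was not tested. Of the cardiomyocyte markers 5 of 8 were in the table, with Nppb at 0 to 9 and Tnni3 at 11 to 97 beside Tnnt2, which embryonic skeletal muscle also makes, at 10743 to 19984. The 7 smooth muscle and pericyte markers summed to 30666 to 60669 in Cre and 10600 to 17928 in GFP, while Myh11 stood at 2 to 9. Most of the sum was Rgs5, which was 4.23-fold higher in Cre (limma, adjusted p = 0.0277 without pairs, 3.5e-08 with them). Cnn1, a smooth muscle calponin, was low but did not overlap, at 7, 11, 18 and 8 in Cre and 1, 0, 0 and 1 in GFP. Mcam, of the same list, was 2.29-fold higher in Cre (limma, adjusted p = 0.118 without pairs, 4.5e-07 with them). The fibroblast markers, 4 of 6 in the table, summed to 655 to 911 in Cre and 178 to 293 in GFP. Most of the difference was in Ly6a and Col1a1, which both passed without pairs. Ly6a was 5.10-fold higher in Cre (limma, adjusted p = 0.0164 without pairs, 1.8e-06 with them). Col1a1 was 18.2-fold higher (limma, adjusted p = 0.00412 without pairs, 1.3e-06 with them). Dcn stood at 1 to 22 and Pdgfra at 95 to 149. The 4 endothelial markers summed to 276 to 408 in Cre and 141 to 182 in GFP. Tek, an endothelial receptor kinase, stood at 313, 243, 114 and 167 in Cre and 115, 83, 31 and 81 in GFP, 2.76-fold higher (limma, adjusted p = 0.175 without pairs, 3.3e-05 with them). Kdr stood at 14 to 46 in Cre and 2 to 14 in GFP, higher in 4 of 4 pairs, and Cdh5 at 1 to 9 over all libraries. The immune markers, 2 of 4 in the table, summed to 89 to 396 in Cre and 28 to 243 in GFP, nearly all Cd68, while Itgam stood at 0 to 7.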

How the data were processed

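RNA-seq libraries of 4 Cre and 4 GFP cultures were compared, grouped by sample title. The submitters' processing notes name the builds mm10 and GRCm38 and the tools STAR 2.5.3a, featureCounts 1.5.3, Subread and DESeq. Settings, and whether counting used the strand of the stranded libraries, were not given in the sources used here. The deposited values were handled as a score: per-gene counts that the authors had scaled between libraries and rounded, as the regular gaps among low values show, so no count model was used.

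Genes at 1 CPM or more of the library total in at least 4 libraries (12910 of 20976) were tested on log2(value + 1) with limma 3.58.1 (R 4.3.3, trended variance), two-sided, Benjamini-Hochberg adjusted over all tested genes, threshold 0.05. Fold changes on this scale understate those of low genes. Groups shared replicate numbers in the titles, so a second model took the number as a block, the paired alternative. The numbers were taken to pair the libraries from the data alone: the correlation of deviations from group means was 0.820 to 0.908 for the 4 same-numbered pairs and -0.597 to 0.477 for the 12 others. Other alternatives were pseudocounts of 0.1 and 5, a filter of 5 CPM or none, rescaling by total or upper quartile, voom, and leaving out each library or pair. Scripts were tested on simulated data.

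Levels per kb used the exon union of GENCODE M21, which held 20941 of 20976 identifiers (99.8%). Python 3.11.15, numpy 2.4.6, pandas 2.3.3, scipy 1.17.1 and matplotlib 3.10.9 were used. The members and gene lists were chosen with earlier results of these data known. Genes from the lists were named from the 4 tested genes with the highest mean, the 2 with the smallest p, and any that passed the unpaired test, and not all of these are printed. Also named were the 10 genes most like Myh3, with predicted and clone genes passed over. The remaining genes named (Chd4, Xist, Ddx3y, Ryr2, antisense genes, single markers) were chosen after their values were seen. Protein sequences were not used here.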

Additional observations from a re-analysis of the deposited data

Results flagged for a closer look

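In 40 sets of 4 values (levels and shares of the members by group, changes within pairs and the ratio of the sum), 2 had a library standing apart from the other 3 by Dixon's ratio, the gap divided by the range, above its 95% critical value. Chance gives about 1 in 20 such sets. Both concern the shares per kb of replicate 4. Myh7b made up 0.401% of the summed level in GFP replicate 4 and 0.242 to 0.264% in the other GFP libraries (ratio 0.862). Myh8 made up 1.90% in Cre replicate 4 and 2.18 to 2.22% in the other Cre libraries (ratio 0.875). In GFP replicate 4 the Myh8 share was 2.08%, within the GFP range of 1.88 to 2.19%, and in Cre replicate 4 the Myh7b share was 0.446%, above the other Cre libraries (0.195 to 0.263%). Replicate 4 is also the pair with Ryr2 reads and, for 6 of the 8 genes, with the largest log2 change.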

How the results depend on the processing

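Without pairs 0 members were called under every alternative run, and leaving out a single library turned the sign of each of the 7 tested members in at least 1 case. The unpaired models without a single library called only 1 to 58 genes in all, against 140 with all 8 libraries, so 0 members there says little. The ranges of the log2 change were -0.41 to 0.91 for Myh1, -0.42 to 1.03 for Myh2, -0.24 to 0.77 for Myh3, -0.11 to 1.09 for Myh4, -0.78 to 0.92 for Myh7, -0.41 to 0.78 for Myh7b and -0.30 to 0.81 for Myh8. With the replicate block and without pair 4, Myh7 was at -0.05. For each of the 7 the lowest value of the unpaired range came without GFP replicate 1, its lowest GFP library. Leaving out a single library keeps its same-numbered partner, so replicate numbers are then unequal between the groups. The cause was not tested, and each model without a library or pair holds fewer libraries.

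The replicate block moved the count of members called from 0 to 3, with the filter of 5 CPM, no filter, pseudocounts 0.1 and 5, total-count rescaling and voom as well, to 4 with upper-quartile rescaling, and to 2 to 4 when a pair was left out. Combinations of the block with another setting were chosen after seeing the data. Light chain calls went from 1 to 6 with the block in each of these settings and to 5 to 6 without a pair, and were 0 to 1 without a single library. Thick filament calls went from 0 to 10, to 8 without a filter, to 9 with voom and to 7 to 9 without a pair. Regulator calls went from 0 to 17, to 15 with the filter of 5 CPM or total-count rescaling, to 16 without a filter or with voom, and to 12 to 15 without a pair (14 without pair 1 or pair 2). With the block and upper-quartile rescaling 3425 of 5680 genes called were higher, against 2861 of 5665 as deposited. Rescaling moved the median of all genes to between -0.022 and 0.035. Shares of transcript windows found in another gene were smaller with 100-base windows, at 14.7% for Myh1 and 1.15% for Myh3. Myh6 was too low to test, and counting error is largest there and in Myh4.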
